A study of Arabidopsis thaliana with 8 samples.

Results

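The genes described here are those whose transcript level separated 4 seedling libraries with little SR45 transcript from 4 libraries with more of it, in Arabidopsis thaliana. A locus was selected on its measured level when the lowest of the 4 values on one side was at least 1.3 times the highest of the 4 values on the other side, with the genotypes asap and sr45 on one side and sap18sr45 and Col0 on the other. A level of at least 3 cRPKM in at least 4 of the 8 libraries was also required. The cRPKM is an RPKM corrected for mappability, the read count per kilobase of mappable sequence and scaled to the mapped reads of the library. Of 9536 loci with values, 4219 passed the minimum level and 69 of those (1.64%) met the rule. The lower level was in asap and sr45 for 33 genes (0.782%), SR45 among them, and the higher level was there for 36 (0.853%). The levels that chose these genes are given as a description, and no p-value of that contrast is used as support.

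Whole seedlings were compared after 11 days on MS medium at 22 °C in long days, with 2 libraries per genotype. The triple mutant asap carries T-DNA insertions in SAP18, SR45 and ACINUS, and comes from a cross of the double mutants sap18 sr45 and sap18 acinus. The single mutant sr45 carries the insertion allele sr45-1, and sap18sr45 carries insertions in SAP18 and SR45. All 3 mutants therefore share, by their labels, an insertion in SR45 that Col0, the wild type, lacks. Separate cultures for the replicates are not stated, and p-values therefore measure library-to-library spread, which may be technical. The loci analysed cover chromosome 1, with 67 of the genes, and the start of chromosome 2, with 2. SAP18 and ACINUS are not analysed here.

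SR45 is a serine/arginine-rich RNA-binding protein that acts in the choice of splice sites. Together with SAP18 and ACINUS it forms the ASAP complex, which is found on messenger RNA with the exon-junction complex, the protein mark left by splicing. In plants, SR45 is known for roles in leaf and flower development and in responses to sugar, abscisic acid and pathogens.

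The libraries held between 1295244 counts (sr45 replicate 1) and 4052420 counts (Col0 replicate 1) over the loci used. The common biological coefficient of variation between replicates was 14.2% in asap, 10.5% in sr45, 4.51% in sap18sr45 and 3.53% in Col0. Leaf photosynthesis genes were present in every library, with summed levels over 6 genes of 60248 to 60504 cRPKM in asap, 65715 to 66135 in sr45, 62023 to 62662 in sap18sr45 and 55458 to 58059 in Col0. The 4 root markers EXPA7, EXPA18, PER3 and NRT2.1 summed to 40.9 to 47.1 cRPKM in asap, against 3.67 to 4.93 in sr45, 7.98 to 9.63 in sap18sr45 and 2.66 to 3.19 in Col0. PER3 made up most of each sum, with 43.09 and 30.12 cRPKM in asap, and only 1 of the 4 markers, PER3, was over the minimum level. Of the 4 markers, 3 were higher in asap than in sr45 by the test described below, and 2 were higher in sap18sr45 than in Col0. The seed storage genes AT1G03880 and AT1G03890 were at 0 in all libraries, and the flower genes SEP3 and AP1 did not pass 2.31 cRPKM. In whole seedlings, fewer cells of a type and less RNA per cell cannot be told apart.

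SR45 (AT1G16610) had 6.23 and 3.85 cRPKM in asap, 6.62 and 4.99 cRPKM in sr45, 13.59 and 14.38 cRPKM in sap18sr45, and 24.24 and 21.00 cRPKM in Col0. These levels rest on 65 and 50 counts in asap, 42 and 56 in sr45, 257 and 175 in sap18sr45, and 484 and 282 in Col0. The 4 genotypes thus formed 3 steps, with asap and sr45 overlapping at the bottom and sap18sr45 between them and Col0. SR45 fell in sap18sr45 relative to Col0, with a log2 fold change of -0.76 ± 0.17 (SE; edgeR quasi-likelihood test, Benjamini-Hochberg adjusted p = 0.00104), a call that was lost without Col0 replicate 1 and in the limma test on log2 cRPKM. Between asap and sr45 the log2 difference was -0.34, with a 95% interval of -0.84 to 0.16 (adjusted p = 0.334). The libraries labelled sap18sr45 thus held 61.8% of the Col0 level although their label gives the same disrupted gene as sr45. Counts cover the whole gene, so transcript before and after the insertion is not separated.

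**Figure D1:**
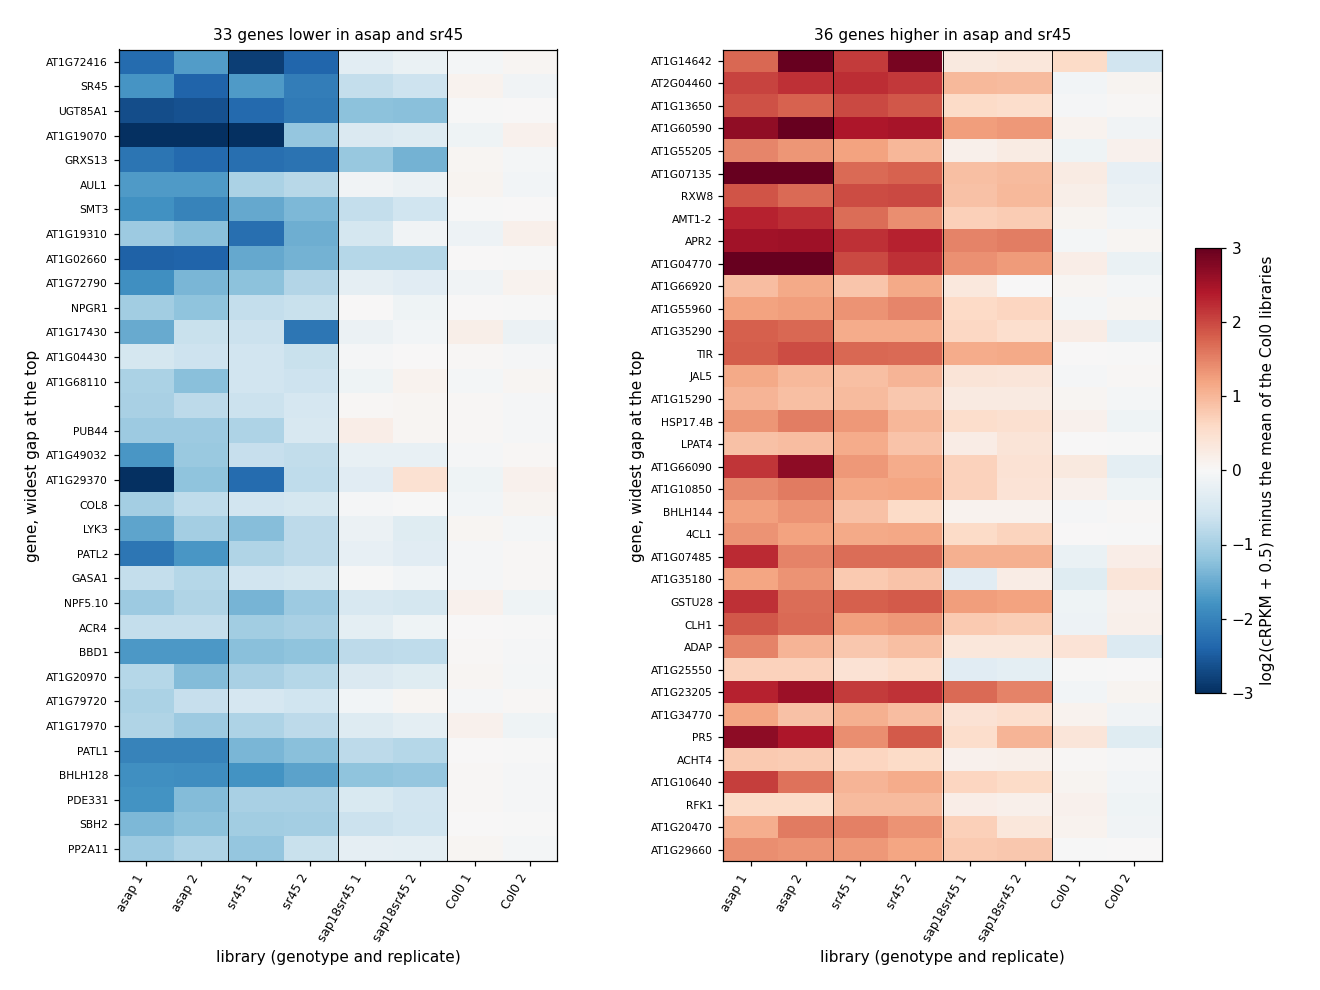
Heat map of the 69 genes (rows, widest gap at the top) in the 8 libraries (columns), as log2(cRPKM + 0.5) minus the mean of the Col0 libraries; the colour scale stops at 3 in either direction, and 1 row has no name. In every row the sap18sr45 columns lie on the Col0 side of the asap and sr45 columns, as the rule sets, and their shade differs from row to row.

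Between the sides, the 33 genes with less transcript in asap and sr45 had a median log2 fold change of -1.11 and the 36 with more had a median of 1.14. All 69 passed the test in that contrast, in which 40.1% of all 5261 tested genes did, and 64 of 69 passed in sr45 against Col0, against 31.7% of all tested genes. Both contrasts were used by the rule and nothing is read from these counts. The gap itself, the ratio of the nearest values of the sides, reached 2.77 among the genes with less transcript and 2.4 among those with more, with medians of 1.38 and 1.4. The gap of 2.4 is that of AT1G14642 and rests on few reads, 5 and 27 counts in asap and 4 and 12 in sr45, against 3 and 2 in sap18sr45 and 4 and 1 in Col0, so it is uncertain. Just inside the threshold were PP2A11 (1.303) and SBH2 (1.309) in the first direction and AT1G29660 (1.304) and AT1G20470 (1.314) in the second. Just outside it were AT1G70360 (1.299) and ERD6 (1.296), and AT1G74300 (1.296) and NAS4 (1.279).

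Among the genes with less transcript in asap and sr45, the widest gap was that of AT1G72416, which encodes a DnaJ-domain chaperone. It had 2.52 and 4.16 cRPKM in asap and 1.61 and 2.34 in sr45, against 11.51 and 12.48 in sap18sr45 and 13.82 and 14.90 in Col0. The low side rests on 18 and 37 counts in asap and 7 and 18 in sr45, so the width of the gap is uncertain. The sap18sr45 libraries were just below those of Col0, and that log2 difference of -0.32 ± 0.21 did not pass the test (edgeR adjusted p = 0.3). UGT85A1, a glycosyltransferase known to act on cytokinins, had 6.19 and 6.42 cRPKM in asap, 7.92 and 9.28 in sr45, 17.40 and 17.31 in sap18sr45, and 41.61 and 41.92 in Col0. Here all 4 genotypes were apart, and sap18sr45 held 41.6% of the Col0 level. The glutaredoxin gene GRXS13 had 9.27 and 8.39 cRPKM in asap, 8.87 and 9.09 in sr45, 19.97 and 16.31 in sap18sr45, and 46.18 and 42.51 in Col0. For GRXS13 the asap and sr45 libraries overlapped, as they did for SR45.

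PATL1 and PATL2 encode patellins, lipid-binding proteins of membrane trafficking and cell plate formation. PATL1 had 117.92 and 117.80 cRPKM in asap, 181.74 and 195.84 in sr45, 272.38 and 259.83 in sap18sr45, and 476.95 and 464.44 in Col0. PATL2 had 20.31 and 27.56 cRPKM in asap, 49.74 and 54.13 in sr45, 78.19 and 73.65 in sap18sr45, and 90.33 and 96.04 in Col0. Both genes formed 4 steps without overlap, but the widest step of PATL2 lay between asap and sr45. SMT3, a sterol methyltransferase of the plant sterol pathway, averaged 19.9 cRPKM in asap, 27.8 in sr45, 47.9 in sap18sr45 and 75.9 in Col0. SBH2, a hydroxylase that modifies the long-chain bases of sphingolipids, averaged 36.5 cRPKM in asap, 43.6 in sr45, 58.1 in sap18sr45 and 89.9 in Col0. AT1G02660, an alpha/beta-hydrolase, had 11.20 and 11.52 cRPKM in asap, 21.31 and 23.13 in sr45, 34.51 and 34.53 in sap18sr45, and 63.72 and 61.95 in Col0, again in 4 steps. AT1G17430 (another alpha/beta-hydrolase) and AT1G68110 (an ENTH/ANTH/VHS-domain protein, a family of clathrin adaptors) were in the same direction. AT1G17430 had 8 and 22 counts in asap and 11 and 4 in sr45, and passed the minimum level only in sap18sr45 and Col0, so its gap is uncertain. The same holds for NPF5.10 and AT1G19070, named below, which also passed that level only in sap18sr45 and Col0. Of 36 loci over the minimum level with lipid transfer or lipase words in the product name, 0 were in this direction and 2 in the other. That match leaves out PATL1, PATL2 and AT1G02660, and AT1G55960 in the other direction, so it does not count all lipid genes.

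The other genes with less transcript in asap and sr45 spanned protein turnover, signalling and transcription. Protein turnover was represented by PUB44, the E3 ubiquitin ligase SAUL1 that delays senescence, the RING/U-box genes AT1G19310 and AT1G17970, the F-box gene AT1G19070 and the aspartyl protease gene AT1G79720. AT1G19070 was at 0 in both asap libraries and in sr45 replicate 1, at 2.59 cRPKM in sr45 replicate 2, and between 4.60 and 7.02 in sap18sr45 and Col0. It overlaps AT1G19080 on the same strand and never had more than 16 counts, so its level is uncertain. Among regulators, BHLH128 (a basic helix-loop-helix factor) had 11.90 and 11.70 cRPKM in asap, 12.32 and 14.12 in sr45, 18.61 and 19.33 in sap18sr45, and 44.51 and 42.86 in Col0. COL8, a B-box factor of the CONSTANS-like family, averaged 8.43 cRPKM in asap, 10.8 in sr45, 15.7 in sap18sr45 and 16 in Col0. The remaining regulators were LYK3 (a LysM-domain receptor kinase), NPGR1 (a relative of a calmodulin-binding pollen protein), ACR4 (an ACT-domain protein), PDE331 (a PB1-domain protein) and GASA1.

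GASA1, a gibberellin-regulated cysteine-rich peptide, was the most abundant of the 69, with 540.79 and 492.59 cRPKM in asap, 600.72 and 622.25 in sr45, 879.39 and 841.81 in sap18sr45, and 875.81 and 909.68 in Col0. The sap18sr45 and Col0 libraries of GASA1 overlapped. BBD1, a nuclease of basal defence, had 75.16 and 75.05 cRPKM in asap, 103.41 and 107.05 in sr45, 143.93 and 147.33 in sap18sr45, and 254.16 and 244.26 in Col0, in 4 steps. The others were AUL1, AT1G72790, AT1G04430 (a methyltransferase), AT1G49032, AT1G20970, NPF5.10 (a transporter of the NPF family), PP2A11 (a phloem lectin) and AT1G29370. The last of these matches AT1G29350 over 100% of its exon bases at 95% identity or more, so its counts, and its spread of 0.00 to 4.77 cRPKM within asap, are uncertain.

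**Figure D2:**
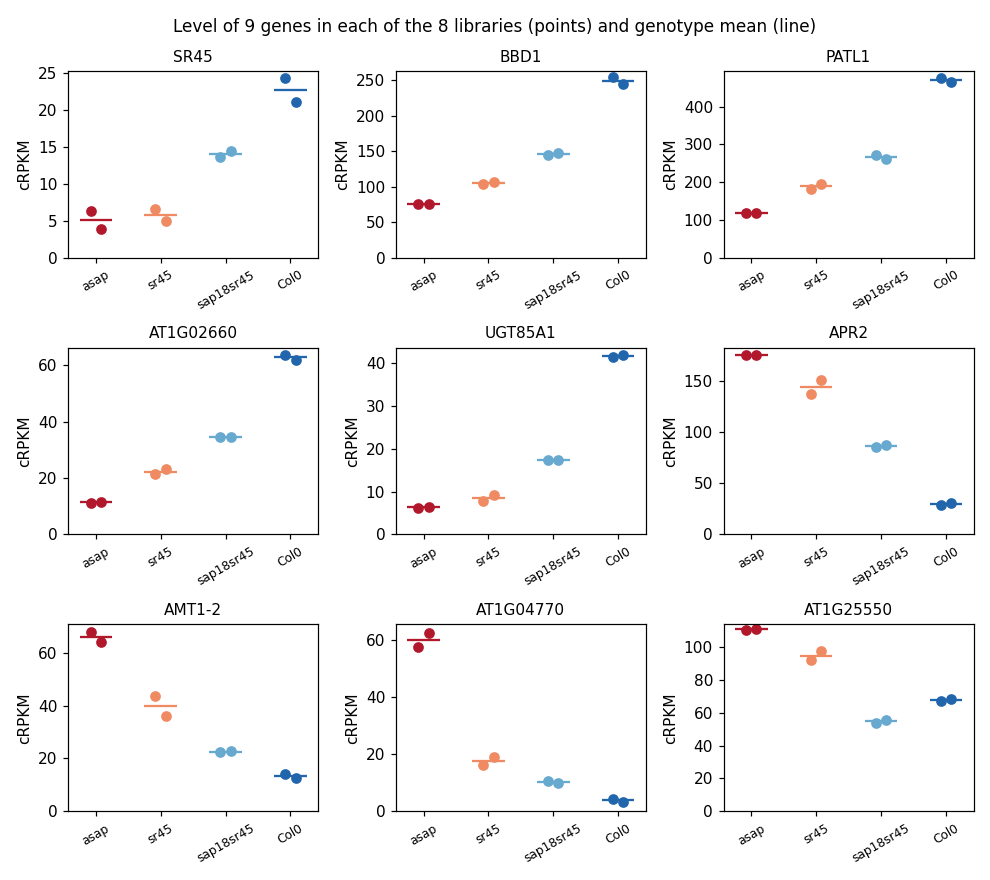
Level in cRPKM (vertical axes, from 0) of 9 genes in asap, sr45, sap18sr45 and Col0; points are libraries and lines are genotype means. SR45 shows 3 steps, BBD1, PATL1, AT1G02660 and UGT85A1 show 4 descending toward asap, APR2, AMT1-2 and AT1G04770 show 4 rising toward asap, and AT1G25550 is lowest in sap18sr45.

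The sequences upstream of AT1G02660 and PATL1 are shown because both genes also passed in each of the comparisons described below, sap18sr45 against Col0 and asap against sr45; they were picked after the values were seen. They are the 250 bases before the annotated start of the transcript, read 5′ to 3′ from the RefSeq assembly TAIR10.1, at chr1:575086-575335 (minus strand) for AT1G02660 and chr1:27148011-27148260 (plus strand) for PATL1. Capitals mark matches, on either strand, to the letters searched: the W-box core TTGAC, the G-box CACGTG, the ABRE core ACGTGT, the telo-box AAACCCTA, the site II element TGGGCC and the evening element AAATATCT.
AT1G02660: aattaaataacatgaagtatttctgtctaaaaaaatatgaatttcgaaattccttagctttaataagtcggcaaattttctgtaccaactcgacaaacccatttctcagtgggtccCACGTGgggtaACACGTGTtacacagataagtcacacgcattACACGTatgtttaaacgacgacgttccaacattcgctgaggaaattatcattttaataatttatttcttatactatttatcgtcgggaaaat
PATL1: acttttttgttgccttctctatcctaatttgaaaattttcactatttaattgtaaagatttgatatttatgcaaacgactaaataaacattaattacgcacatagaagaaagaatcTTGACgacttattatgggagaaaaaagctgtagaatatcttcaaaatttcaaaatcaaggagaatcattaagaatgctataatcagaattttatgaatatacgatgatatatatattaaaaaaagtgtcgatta
AT1G02660 held 2 G-boxes, at 134 and 122 bases before the start, the second of which overlaps matches to the ABRE core, and PATL1 held a single W-box core at 134 bases. A G-box was found in 5 of 33 windows of the genes with less transcript in asap and sr45 (15.2%), counted from 250 bases before to 50 after the start. The other genes of that direction with a G-box were AT1G19310, AT1G68110, ACR4 and AT1G79720. The share was 2 of 36 (5.56%) for the genes with more transcript and 9.56% for all windows of loci over the minimum level. An evening element was present in 5 of 33 (15.2%) and 2 of 36 (5.56%), beside 5.76% of those windows. Each of the counts rests on at most 5 genes, no test was made, and a match of letters is not evidence of a factor bound there.

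Among the 36 genes with more transcript in asap and sr45, APR2 and AMT1-2 serve the assimilation of sulfur and nitrogen. APR2, the plastid reductase of the sulfate assimilation pathway, had 174.91 and 175.20 cRPKM in asap, 137.39 and 150.37 in sr45, 84.98 and 87.21 in sap18sr45, and 28.83 and 30.95 in Col0. AMT1-2, a high-affinity ammonium transporter, had 68.06 and 64.13 cRPKM in asap, 43.59 and 36.10 in sr45, 22.31 and 22.84 in sap18sr45, and 14.20 and 12.59 in Col0. For both genes the 4 genotypes did not overlap. AT1G04770, a tetratricopeptide repeat protein, had 57.45 and 62.49 cRPKM in asap, 16.32 and 18.92 in sr45, 10.53 and 9.78 in sap18sr45, and 4.40 and 3.18 in Col0. Its level in asap was far above that in sr45, and so was that of the glycine-rich protein gene AT1G07135, with 64.29 and 57.96 cRPKM in asap, 12.58 and 13.07 in sr45, 6.95 and 7.26 in sap18sr45, and 4.21 and 2.89 in Col0.

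The upstream bases of AMT1-2 (chr1:24062805-24063054, minus strand) and AT1G04770 (chr1:1337850-1338099, minus strand) are shown for the same reason as above, with the same marks and from the same assembly.
AMT1-2: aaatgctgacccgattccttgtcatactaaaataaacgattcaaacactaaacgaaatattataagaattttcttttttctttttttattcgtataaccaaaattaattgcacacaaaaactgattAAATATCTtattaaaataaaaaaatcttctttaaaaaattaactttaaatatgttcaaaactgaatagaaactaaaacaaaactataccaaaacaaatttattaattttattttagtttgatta
AT1G04770: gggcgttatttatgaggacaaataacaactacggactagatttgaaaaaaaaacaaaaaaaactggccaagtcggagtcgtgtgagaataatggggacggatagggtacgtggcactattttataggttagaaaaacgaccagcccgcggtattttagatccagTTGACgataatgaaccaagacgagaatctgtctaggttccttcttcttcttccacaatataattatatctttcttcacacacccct
AMT1-2 held an evening element at 124 bases before the start, and AT1G04770 held a W-box core at 86 bases. A W-box core was present in 16 of 33 windows of the genes with less transcript in asap and sr45 (48.5%), in 21 of 36 windows of the genes with more (58.3%) and in 50.3% of windows of loci over the minimum. The site II element, frequent upstream of ribosomal and other growth genes, was found in 1 of 33 and 1 of 36 windows (3.03% and 2.78%), beside 20% of windows over the minimum. The ABRE core was found in 3 of 33 (9.09%) and 0 of 36, beside 13.3%, and the telo-box in 1 of each direction, beside 5.29%. The ABRE core shares letters with the G-box, so one stretch can count for both.

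Cell wall enzymes, of which 38 were over the minimum level, gave 3 genes, all with more transcript in asap and sr45. The pectin lyase-like gene AT1G60590 had 15.63 and 21.53 cRPKM in asap, 13.21 and 13.58 in sr45, 5.56 and 5.82 in sap18sr45, and 2.25 and 1.87 in Col0. The pectin methylesterase inhibitor gene AT1G23205 had 12.15 and 14.58 cRPKM in asap, 10.40 and 10.99 in sr45, 7.80 and 6.70 in sap18sr45, and 1.91 and 2.20 in Col0. The third was AT1G10640, also pectin lyase-like, with means of 10.5 cRPKM in asap, 5.8 in sr45, 4.1 in sap18sr45 and 2.52 in Col0. Each of them had sap18sr45 above Col0 in both libraries, which held for 31 of the 36 genes of this direction. AT1G10640 did not pass the test between these genotypes (edgeR adjusted p = 0.0533). 4CL1, which activates the phenylpropanoids that serve as lignin precursors, averaged 91.5 cRPKM in asap, 83.4 in sr45, 57.8 in sap18sr45 and 37.4 in Col0.

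PR5, a thaumatin-like protein used as a marker of salicylic acid responses, had 17.44 and 14.38 cRPKM in asap, 6.85 and 9.47 in sr45, 3.49 and 5.15 in sap18sr45, and 3.06 and 1.68 in Col0. TIR, which encodes a Toll/interleukin-1 receptor domain protein, had 174.95 and 193.90 cRPKM in asap, 164.73 and 162.01 in sr45, 107.85 and 109.74 in sap18sr45, and 49.83 and 49.31 in Col0. AT1G72910 matches 72.1% of the exon bases of TIR at 95% identity or more, so reads of these genes may have been split. AT1G66090, a TIR-NBS disease resistance gene, averaged 12.6 cRPKM in asap, 5.06 in sr45, 3.06 in sap18sr45 and 1.96 in Col0. JAL5 encodes a jacalin-type lectin, and AT1G10850, RFK1 and AT1G66920 encode receptor-like kinases. Of 221 protein kinase loci over the minimum, 4 met the rule, these 3 and LYK3, which made up 5.8% of the 69 beside 5.24% of loci over the minimum. Of 31 disease resistance loci of the NLR type, AT1G66090 alone did. Products tied to defence were in both directions, BBD1 and LYK3 being in the other one.

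The other genes with more transcript in asap and sr45 included CLH1 (chlorophyllase), with 68.42 and 61.13 cRPKM in asap, 43.72 and 46.04 in sr45, 32.16 and 30.92 in sap18sr45, and 16.39 and 20.55 in Col0. Lipid metabolism was represented by LPAT4 (an acyltransferase), AT1G35290 (a thioesterase), AT1G55960 (a lipid transport domain protein), AT1G35180 and, by product name, the GDSL lipase genes AT1G29660 and RXW8. RXW8 overlaps AT1G58525 on the same strand, so its level may hold reads of both, and its product name is uncertain. Redox and stress products were GSTU28 (a glutathione transferase), ACHT4 (a plastid thioredoxin) and HSP17.4B (a small heat shock protein). The regulators were BHLH144, the AP2-domain factor ADAP, the SAUR-like gene AT1G20470 and the myb-like factor AT1G25550. The remaining genes were AT1G15290, AT1G34770 and AT1G13650, AT1G14642, AT2G04460, AT1G55205 and AT1G07485, of which the last 5 had no characterized product. AT1G13650 was the most abundant of these, with 230.84 and 207.23 cRPKM in asap, 241.91 and 220.96 in sr45, 91.09 and 87.13 in sap18sr45, and 59.48 and 61.74 in Col0. AT1G35180 matches AT1G35170 over 61.9% of its exon bases, and its level is uncertain for that reason. AT2G04460, AT1G55205, AT1G66920 and AT1G35290 passed the minimum level only in asap and sr45, so their gaps are uncertain. AT1G55205 had 7 to 18 counts per library.

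The levels in sap18sr45 and Col0, which stand on the same side of the rule, were compared to see how far the genes differed between them. The rule used the same libraries, though not this contrast, and it limits in part how large the difference can be. In sap18sr45, 16 of the 33 genes with less transcript in asap and sr45 were lower than in Col0 and 0 were higher, and 18 of the 36 with more were higher and 1 was lower (edgeR quasi-likelihood test, adjusted p under 0.05). All but 1 of the genes that passed thus differed from Col0 in the same direction as in asap and sr45. Of all 5261 tested genes, 27.1% passed this test, 12.9% as higher and 14.2% as lower, and 31.6% passed among the tested loci over the minimum level. All 69 were among the tested genes, and 35 of them (50.7%) passed. The median log2 fold change was -0.35 for the first direction and 0.56 for the second, beside 0.01 for all tested genes. The sign was that of the difference in asap and sr45 for 31 of 33 and 34 of 36. Such agreement, in calls or in signs, was not counted for other genes that differ in asap and sr45, so nothing is read from it. On the deposited cRPKM scale, tested with limma, 59.5% of all calls were higher in sap18sr45 against 47.6% in the count fit, and the members' calls became 18 higher and 10 lower, against 18 and 17. The root marker sum, mostly PER3, was also above that of Col0 in both sap18sr45 libraries, as given above, and its part was not tested.

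In sap18sr45 relative to Col0, the smallest adjusted p-values among the falls were those of BBD1, PATL1, AT1G02660, UGT85A1 and BHLH128. BBD1 fell by 0.83 ± 0.06 on the log2 scale (SE; edgeR adjusted p = 1.36e-11), PATL1 by 0.88 ± 0.06 (1.51e-11) and AT1G02660 by 0.92 ± 0.08 (3.82e-10). UGT85A1 fell by 1.32 ± 0.12 and BHLH128 by 1.26 ± 0.12. Among the rises, APR2 had a log2 fold change of 1.47 ± 0.07 (adjusted p = 5.75e-15), AT1G29660 of 0.74 ± 0.07, TIR of 1.08 ± 0.11, AT1G55960 of 0.57 ± 0.07 and RXW8 of 0.88 ± 0.12. AT1G23205 had the widest rise, 1.78 ± 0.30, from a Col0 level that rests on 22 and 17 counts. AT1G25550 moved the other way: it fell to 53.97 and 55.84 cRPKM in sap18sr45, against 67.42 and 68.68 in Col0 (log2 fold change -0.37 ± 0.08, adjusted p = 0.000578), with 110.59 and 110.98 in asap and 92.04 and 97.66 in sr45.

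The 17 genes of each direction that did not pass between sap18sr45 and Col0 are not shown to be equal in them. Their 95% intervals had a median width of 0.67 on the log2 scale in the first direction and 1.17 in the second. The error was small for the abundant genes: AT1G04430 had a log2 difference of -0.06 ± 0.07, GASA1 of -0.11 ± 0.07 and ACHT4 of 0.09 ± 0.08. Of the 35 calls, 22 were kept under all 15 alternative fits and 13 were lost in at least 1: SR45, PATL2, NPF5.10, ACR4, AT1G20970, AT1G17970, PP2A11, AT2G04460, AT1G07135, JAL5, AT1G15290, AT1G10850 and GSTU28. Leaving out any library of the pair lowered the number of members called to 25 or 26.

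**Figure D3:**
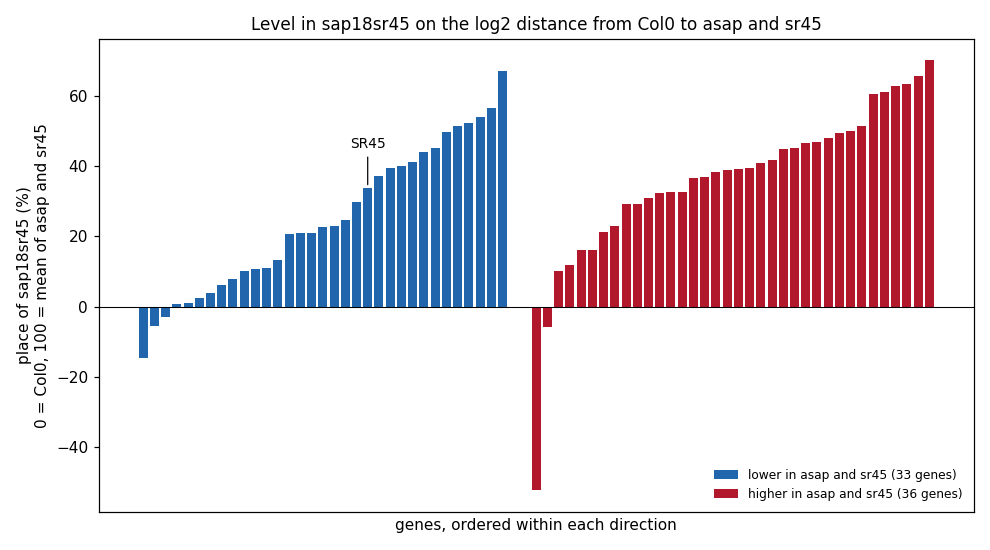
Place of sap18sr45 on the log2 distance from Col0 (0%) to the mean of asap and sr45 (100%) for the 33 genes with less and the 36 with more transcript in asap and sr45 (bars, ordered within each direction). SR45 itself is at 33.8%, and the places run from -52.3% (AT1G25550) to 70% (AT1G23205).

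The place of sap18sr45 between Col0 and the other mutants was spread widely. On the log2 distance from Col0 to the mean of asap and sr45, SR45 was at 33.8%. The median was 22.5% for the genes with less transcript in asap and sr45 (range -14.6 to 66.9%) and 38.9% for those with more (range -52.3 to 70%). Of the other 68 genes, 34 lay below the place of SR45 and 34 above it. At 50% or more were 13 genes. In the first direction these included BHLH128 (66.9%), GRXS13 (56.5%), SBH2 (53.8%), BBD1 (52.2%) and UGT85A1 (51.2%). In the second they included AT1G23205 (70%), GSTU28 (65.5%), APR2 (63.3%) and TIR (62.7%). The Col0 level rests on 22 and 17 counts for AT1G23205 and on 12 and 10 for GSTU28, so these places are uncertain. Below 25% were 27, with PUB44 (-14.6%) and AT1G29370 (-2.96%) among those on the far side of Col0 in the first direction. The rule caps these places, since a gene close to asap and sr45 in sap18sr45 could not meet it.

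The levels in asap and sr45 were compared in the same way. In asap, 17 of the 33 genes with less transcript were lower still than in sr45 and 0 were higher, and 7 of the 36 with more were higher still and 4 were lower. Of all tested genes, 27.2% passed, 12.7% as higher and 14.5% as lower, and 30.1% passed among tested loci over the minimum, beside 28 of the 69 (40.6%). The median log2 fold change was -0.46 in the first direction and 0.10 in the second, beside 0.01 for all tested genes. These values differed on the deposited cRPKM scale, where limma was the test, so that scale and test changed together. There the median of all genes shifted to 0.14, and 70.5% of all calls were higher in asap against 46.7% in the count fit. The members' calls became 10 higher and 13 lower, against 7 and 21. The main fit shares its estimate of the spread across genotypes, while asap and sr45 had the widest replicate spread, as given above. A count fit of only the 4 libraries of asap and sr45 called 996 genes and 21 members, against 1433 and 28. The root markers that set asap apart, PER3 above all, and the photosynthesis sums given above, moved with this comparison, and their part in it was not tested.

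Relative to sr45, the smallest adjusted p-values among the falls in asap were those of PATL1 (log2 fold change -0.83 ± 0.07, edgeR adjusted p = 1.51e-10), PATL2 (-1.26 ± 0.10, 1.23e-09), AT1G02660 (-1.13 ± 0.10, 1.8e-09), BBD1 (-0.64 ± 0.07) and AUL1 (-1.10 ± 0.17). Among the rises they were those of AT1G07135 (2.09 ± 0.20, 4.08e-09), AT1G04770 (1.60 ± 0.15, 4.08e-09), AMT1-2 (0.59 ± 0.10, 3.45e-05), AT1G66090 (1.19 ± 0.27) and CLH1 (0.37 ± 0.11). The 4 genes that were lower in asap than in sr45 although higher in both than in Col0 were AT1G13650, RXW8, AT1G55960 and RFK1, with log2 fold changes of -0.23, -0.33, -0.33 and -0.53. None of these 4 passed on the cRPKM scale. Without sr45 replicate 1, and likewise without sr45 replicate 2, the number of members called higher in asap was 4. Of the 28 calls, 16 were kept under all 15 alternatives. The 12 lost in at least 1 were UGT85A1, AT1G72790, PUB44, AT1G20970, AT1G79720, AT1G13650, RXW8, AT1G55960, CLH1, PR5, AT1G10640 and RFK1.

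**Figure D4:**
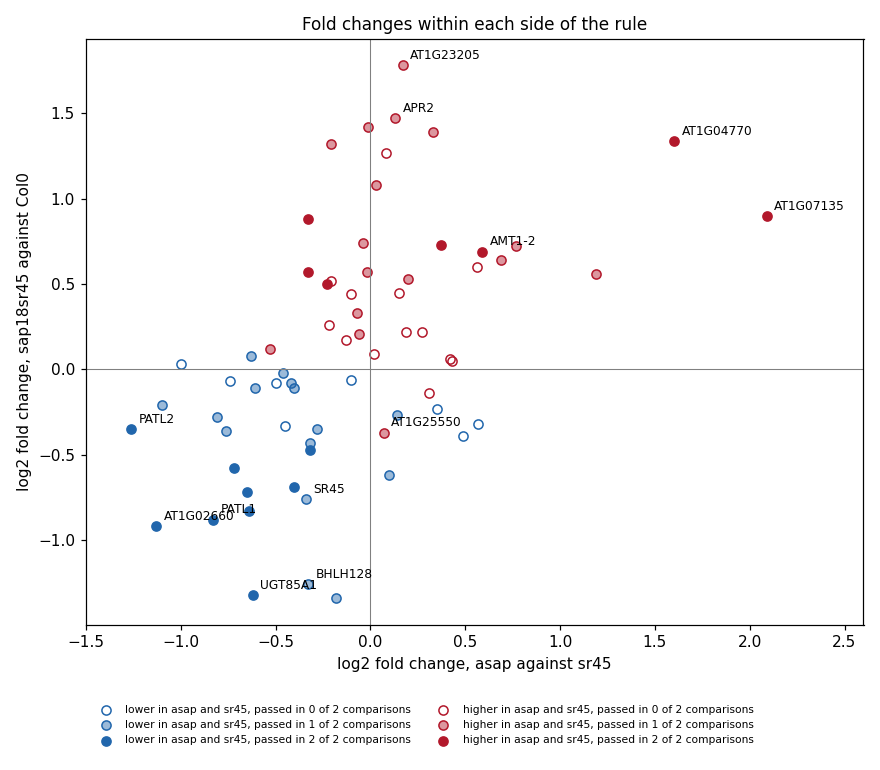
Log2 fold change of sap18sr45 against Col0 (vertical) and of asap against sr45 (horizontal) for 68 of the 69 genes, coloured by direction, with fill showing in how many of the 2 comparisons the gene passed. AT1G19070, at 0 counts in both asap libraries, is left out. Blue points lie mostly below 0 on both axes, and red points lie mostly above 0 on the vertical axis but on both sides of 0 on the horizontal one.

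Taking the comparisons side by side, which share no libraries, 9 of the 33 genes with less transcript in asap and sr45 passed in both, in the same direction: UGT85A1, SMT3, AT1G02660, PATL2, BBD1, AT1G20970, PATL1, PDE331 and SBH2. By their means these formed 4 levels, with asap lowest, then sr45, sap18sr45 and Col0, although single asap and sr45 libraries of AT1G20970 overlapped. Another 7 passed only between sap18sr45 and Col0, among them SR45, GRXS13 and BHLH128, and 8 only between asap and sr45, among them AUL1, NPGR1, PUB44 and GASA1. The 9 that passed in neither included AT1G72416, AT1G04430, COL8 and LYK3. Among the 36 genes with more transcript, 4 passed as higher in both: AT1G07135, AMT1-2, AT1G04770 and CLH1. Another 11 were higher in sap18sr45 than in Col0 and did not pass between asap and sr45, among them APR2, TIR and 4CL1, and 13 passed in neither. Passing in one comparison and not in the other is no test of a difference between them. Taken separately, 16 and 17 of the 33 passed as lower, and 18 and 7 of the 36 passed as higher. The share of all tested genes that passed in both was not counted, so nothing is read from the counts of 9 and 4.

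The genes most like SR45 over the 8 libraries, by the Pearson correlation of log2(cRPKM + 0.5), were NPF4.6 (0.987), AT1G62480 (0.980), AT1G20970 (0.978), AT1G17970 (0.974) and PUP22 (0.971). Of these, NPF4.6 (a nitrate and abscisic acid transporter), AT1G62480 and PUP22 did not meet the rule, since their gaps were narrower. Most opposed were ADT6 (-0.975), AT1G60590 (-0.975), AT2G04460 (-0.970), AT1G66920 (-0.966) and AT1G15260 (-0.961). Of these, AT2G04460 and AT1G66920 passed the minimum level only in asap and sr45. The rule itself gives the genes that met it a strong correlation with SR45, positive in the first direction and negative in the second, so nothing is read from it. The points are 4 pairs of replicates, so these values describe the order of the genotypes more than a relation among 8 samples.

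Genes of the pathways named for SR45 were then counted, beside the 1.64% of loci over the minimum that met the rule; at that share, lists of this length would hold few or none. Of 5 genes of the ASAP, PSAP and exon-junction complexes, SR45 alone did. The others were AtPININ (AT1G15200), MEE63 (the Mago homolog), Y14 and UPF3, with gaps of 0.818 to 1.053. None of 8 SR and splice-site factors met it, and 4 of these differed between sap18sr45 and Col0 (1 higher, 3 lower) and 1 between asap and sr45 (higher). By words in the product name, which leave out SR45, 106 loci over the minimum were RNA processing loci and 71 were ribosomal protein loci. Of these, 0 met the rule. Of 7 salicylic acid defence genes over the minimum, PR5 did, while NPR1, the salicylic acid receptor, had a gap of 1.239 in the other direction, with 6 and 5.64 cRPKM in asap, 5.82 and 7.12 in sr45, 8.82 and 9.83 in sap18sr45, and 11.06 and 11.17 in Col0. None of 9 jasmonate genes and 7 abscisic acid and dehydrin genes over the minimum met it. Between sap18sr45 and Col0, 2 of 10 tested salicylic acid genes were higher and 0 lower, 3 of 13 jasmonate genes were higher and 1 lower, and 2 of 8 abscisic acid genes were higher and 4 lower, beside 12.9% of all tested genes higher and 14.2% lower. Between asap and sr45, 3 salicylic acid genes were higher and 0 lower, 4 jasmonate genes were higher and 4 lower, and 3 abscisic acid genes were higher and 1 lower, beside 12.7% and 14.5% of all tested genes. With so few genes in each list, nothing is called particular to them.

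As a sum, the 9 sugar starvation genes followed a different course from the genes that met the rule. Their summed level was 481 to 504 cRPKM in asap, 666 to 672 in sr45, 695 to 722 in sap18sr45 and 1760 to 1773 in Col0. Here sap18sr45 stood beside sr45 and apart from Col0. That course is not particular to the list. The main axis of variation over all tested genes (48.8% of the variance) gave a like order. On it, sap18sr45 was at -4.1 and -3.44 and sr45 at 1.08 and -1.49. Col0 was at -30 and -30.1, and asap at 33.9 and 34.1. All 9 were lower in sap18sr45 than in Col0, with a median log2 fold change of -0.99, beside 14.2% of all tested genes that were lower. In asap, 4 were lower than in sr45, beside 14.5% of all tested genes. None of the 9 met the rule, but single genes came near it. STP1 had a gap of 1.239, with 94.18 and 87.82 cRPKM in asap and 216.41 and 219.72 in sr45. It had 281.49 and 272.16 in sap18sr45, and 850.20 and 850.71 in Col0. The sides were also apart for TPS10 (gap 1.116) and DYL1 (1.036), and they overlapped for the others.

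Structure and position were then described, with no test. The median number of exons was 4 in each direction, beside 5 for loci over the minimum level, and single-exon genes made up 12.1% and 13.9%, beside 11.5%. Overlap with another annotated gene was found for 8 of 33 and 11 of 36 (24.2% and 30.6%), beside 33.8%. Use of strand information in counting is not stated in the sources, and levels of genes such as APR2, AT1G04770 and 4CL1, which overlap a gene on the opposite strand, may hold reads of both. PATL2 and NPF5.10 are neighbours, and LPAT4 and PR5 have 1 locus with values between them. Cut into 10 stretches of equal number along the table, the loci gave between 3 and 11 of the genes each.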

How the data were processed

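RNA of whole seedlings of asap, sr45, sap18sr45 and Col0 was sequenced as stranded mRNA libraries, 2 per genotype. The authors mapped and counted reads with vast-tools against its Arabidopsis library (TAIR10) and deposited raw read counts per gene beside cRPKM, an RPKM corrected for mappability. Only these 8 libraries' columns were present. Loci without values (462 of 9998) and 1 line without a locus (at most 0.00281% of counts) were left out.

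Membership was computed from cRPKM. Counts were fitted in R 4.3.3 with edgeR 4.0.16 (filterByExpr defaults, TMM scaling, quasi-likelihood with robust dispersion, all 8 libraries in 1 model with 4 residual degrees of freedom). Tests were 2-sided with Benjamini-Hochberg adjustment over the 5261 genes tested and a threshold of 0.05. Each SE was obtained by dividing the absolute log2 change by the root of its F value. Scripts were tested on simulated data. Alternatives used DESeq2 1.42.0, limma 3.58.1 on log2(cRPKM + 0.5) and log2(cRPKM + 0.1), no filter, other scalings, a replicate block, fewer libraries, and other limits of the rule. In each direction the genes named were the 12 widest gaps with a product name, those next to the threshold, up to 5 smallest adjusted p-values per comparison and direction, the 5 loci most like or opposed to SR45, and list members that met the rule. Other genes are named so that each is accounted for, except 1 that is counted but not reported here.

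The rule, the gene lists and the tests were chosen with earlier results of these data known. Names and products come from the deposited table and RefSeq (TAIR10.1), in which 98.9% of loci were found. Gene classes, unlike the lists, were picked by words in the product names, so a gene named otherwise is left out. A promoter table was planned, and windows were instead taken from the TAIR10.1 genome and its own annotation, so their coordinates refer to that assembly only. Replicate numbers did not pair the libraries (correlations of replicate differences between genotypes, -0.0357 to 0.0435). No protein sequence was used.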

Additional observations from a re-analysis of the deposited data

How the results depend on the processing

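The number of genes meeting the rule moved with its limits: 131 at a gap of 1.2 times, 19 at 1.5 and 6 at 2, beside 69. Leaving out a library loosens the rule, and gave 70 to 150 genes, with 104 without sr45 replicate 1, 150 without sr45 replicate 2 and 115 without sap18sr45 replicate 2; of the 69, 65 or 66 remained each time. After quantile normalization 68 genes met it (55 shared), and after TMM scaling 65 (57 shared). For sap18sr45 against Col0, the 1425 genes called became 2168 in a fit of the 4 libraries compared and 758 to 1845 with a library left out (803 and 854 without sap18sr45 replicates 1 and 2, 758 and 807 without Col0 replicates 1 and 2), and members called ran from 25 to 41. For sr45 against Col0, leaving out a library gave 1023 to 1975 genes, beside 1669, with 1023 and 1078 without Col0 replicates 1 and 2. On the cRPKM scale (limma, pseudocount 0.5) the share of calls that were higher was 59.5% in sap18sr45 against Col0, beside 47.6%, and 58.4% between the sides, beside 48.1%. DESeq2 called 29 members in sap18sr45 against Col0, with 9 given no adjusted p, and 23 in asap against sr45. Fitting the replicate number as a block gave 1355 genes and 35 members in sap18sr45 against Col0, and 1360 genes and 26 members in asap against sr45, where PR5 and AT1G79720 were lost; it changed no other call of a member in these comparisons, and in sr45 against Col0 it left 62 of 64 members called. No direction of a called value reversed. The causes of these shifts were not tested. Depth limits low genes: 3 counts were 0.74 to 2.32 CPM in a library.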
